A study of Saccharomyces cerevisiae with 22 samples.

Results

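The transcripts of 34 genes of glycolysis, ethanol fermentation and the pentose phosphate pathway were followed in budding yeast through a heat shock and through a shift in the opposite direction. The genes were chosen by symbol, and all 34 were found among the 5315 genes with a symbol on the array. They comprise 5 genes of upper glycolysis, 11 of lower glycolysis, 8 of fermentation, 5 of the oxidative and 5 of the non-oxidative branch of the pentose phosphate pathway. Cells were of the wild-type strain BY4742, which is of mating type alpha and lacks LEU2, LYS2 and URA3, in synthetic complete medium with 2% glucose. For the heat shock, cells grown at 30 °C were pelleted and re-suspended at 37 °C, and were harvested after 5, 15, 30, 45 and 60 min. For the cooling series, labelled cold shock, cells grown for 2 doublings at 37 °C were pelleted and re-suspended at 30 °C, and were harvested at 0, 5, 15, 30, 45 and 60 min. The samples harvested after time 0 thus share the pelleting and re-suspension. The sample at time 0 of cooling represents growth at 37 °C, and whether it was also re-suspended is not stated.

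Each sample was hybridised in 2 colours against a common reference, RNA of untreated BY4742 from a single culture. Each of the 11 conditions had 2 arrays of opposite dye: on array a the sample carried Cy3, on array b Cy5. By the design text the arrays of a condition come from independent cultures with exchanged dyes, whereas the study's methods describe 2 biological replicates each in dye-swap. The p-values below therefore measure the spread between arrays, which may be technical. The untreated heat shock culture at time 0 was not analysed here, so the common reference stood in for it. Since the reference culture was untreated, the change of temperature and the pelleting and re-suspension cannot be told apart in comparisons with it. Values are log2 ratios of sample over reference, at 0 where both are equal. A gene was called higher or lower when limma gave an adjusted p below 0.05 (Benjamini-Hochberg over 5326 probes) together with a change of more than 1.7-fold.

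Glycolysis splits glucose into pyruvate and yields ATP and NADH. In yeast on abundant glucose most pyruvate is then decarboxylated to acetaldehyde and reduced to ethanol, which regenerates NAD+ for glycolysis. The oxidative branch of the pentose phosphate pathway draws glucose phosphate off at the top of glycolysis and makes NADPH, the reductant for biosynthesis and for defence against oxidants, while the non-oxidative branch interconverts sugar phosphates and provides ribose phosphate for nucleotides. Many of these steps in budding yeast are served by a main enzyme, encoded by a strongly expressed gene, and by a second form encoded by a duplicate gene.

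The median intensity of gene spots ranged from 210 to 527 in the Cy5 channel and from 195 to 394 in the Cy3 channel, and 91.9% to 97.6% of gene spots per array were well above background in both channels. Each member had 1 probe, which was well above background in both channels on all 22 arrays. The number of arrays limits the precision. Array a and array b of a condition correlated at 0.939 to 0.991 over all probes. Among arrays a the lowest correlation was −0.365 and among arrays b −0.406; the dyes are stated in the labels, and heat and cooling arrays were opposed. The alpha-specific MF(ALPHA)1, MF(ALPHA)2 and STE3 were bright. The a-specific MFA1, MFA2, STE2 and BAR1, expected at or near background, were dim, with mean log2 intensities of 6.36, 5.98, 7.1 and 6.42. They were nevertheless well above background on 22, 20, 22 and 22 arrays. URA3 was well above background on 1 array and LEU2 on 6, while the LYS2 probe, expected at background, was dim but above it on 22 arrays (highest signal 201). The array measures RNA relative to the rest of the RNA, so that fewer cells with a transcript and less of it per cell cannot be told apart.

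Heat shock raised a small set of second-form genes strongly, and 1 gene, RKI1, was called lower. With the print-block curve the main forms of the same enzymes stayed within the fold threshold. Of these main forms GND1, TKL1, GPM1 and CDC19 passed it under 1 or more of the other normalisations. At 15 min, 9 of 34 members were called higher and 1 lower. Among all probes 8.92% were called higher and 9.35% lower at that time. Of the 9, SOL4, GND2, TKL2, GPM2 and PYK2 were called higher at 15 min in each of 8 normalisation settings. The other 4, TDH1, TDH3, ENO2 and ZWF1, were not. At the other times the members called higher numbered 5, 8, 8 and 6 after 5, 30, 45 and 60 min, when 6.85%, 7.7%, 4.13% and 3.74% of all probes were called higher. RKI1 was the member called lower at every time, against backgrounds of 6.01%, 7.02%, 1.82% and 1.41% at 5, 30, 45 and 60 min. At an unadjusted p under 0.05 (limma), 24 members were higher and 16 lower at 1 or more times. The median member stood at 0.20 on the log2 scale at 15 min, and between 0.17 and 0.19 at the other heat shock times. These times share the reference, and the values at 1 time are no independent support for those at another.

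**Figure D1:**
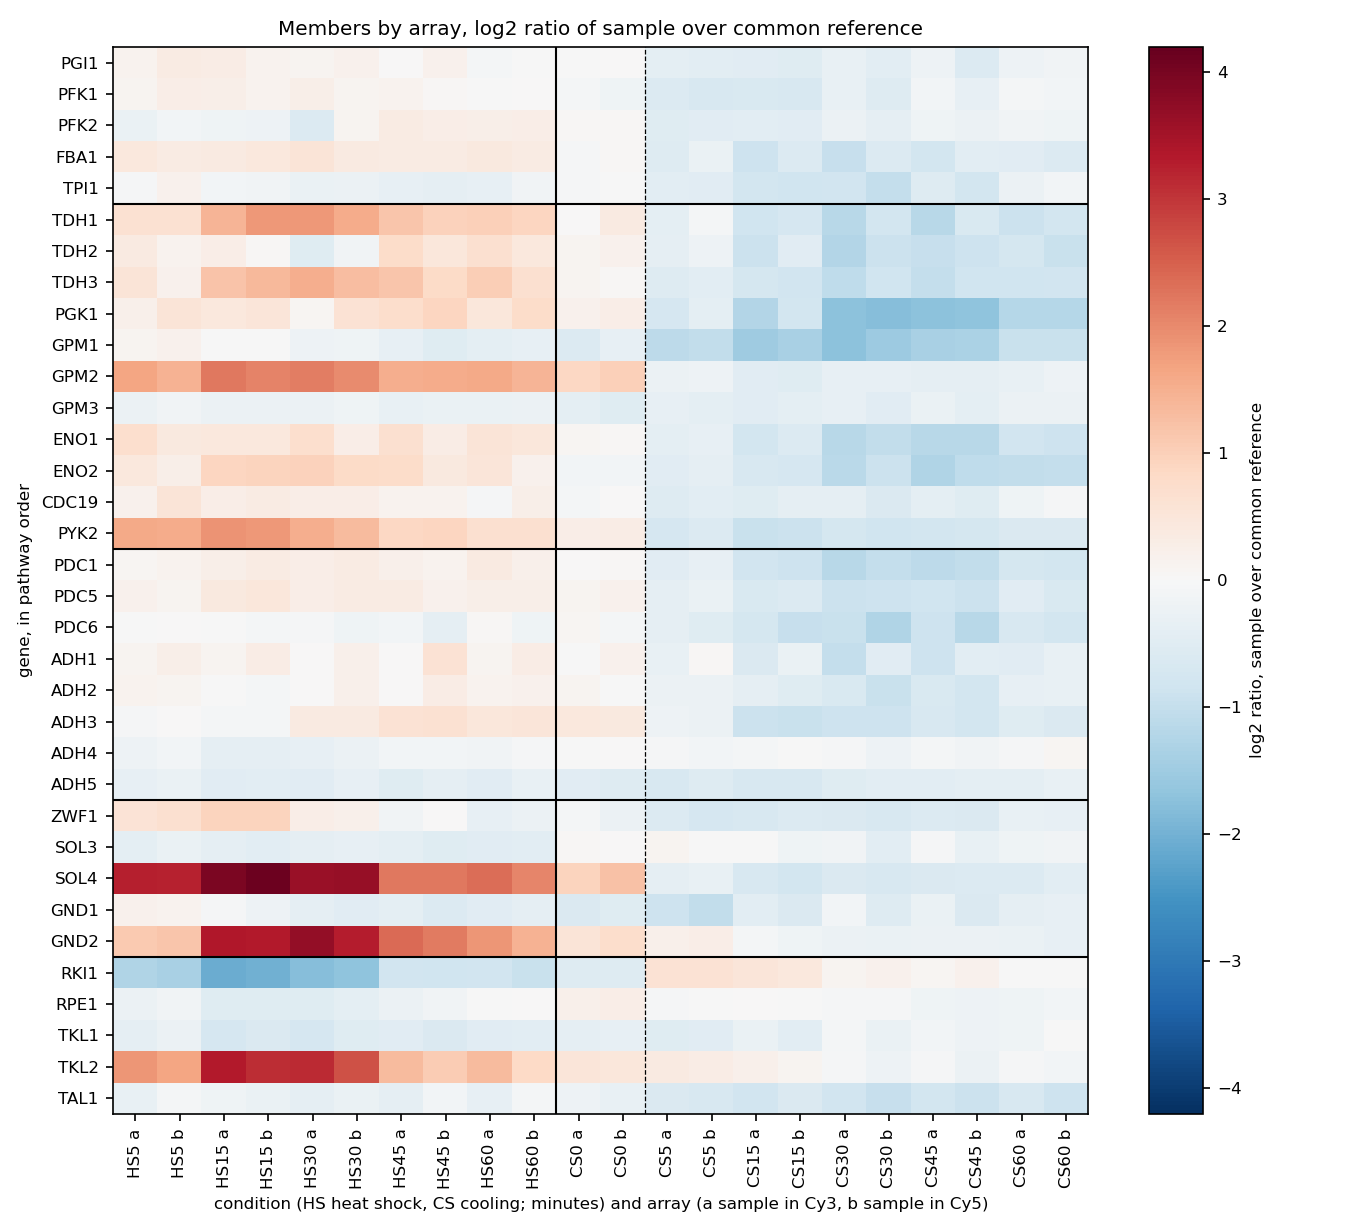
Log2 ratio of sample over common reference (colour) for each of the 34 genes (rows, in pathway order, black lines between the groups) on each of the 22 arrays (columns; HS heat shock, CS cooling, minutes, array a or b). SOL4, GND2, TKL2, GPM2 and PYK2 are red through heat shock, RKI1 is blue, and most rows turn blue after cooling.

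SOL4, in the oxidative branch, had the largest rise of the 34 members. SOL4 and SOL3 encode phosphogluconolactonases, which open the lactone formed by the first enzyme of the branch. SOL4 stood at 3.28 on array a and 3.24 on array b at 5 min, at 3.97 and 4.12 at 15 min, and at 3.62 and 3.66 at 30 min. It had come down to 2.21 and 2.22 at 45 min and to 2.34 and 2.05 at 60 min. All 10 heat shock arrays were thus above every cooling array, where the highest value was 1.22. At 15 min SOL4 was 16.5-fold higher than the reference (4.04 ± 0.0639 log2, SE, n = 2 arrays, limma adjusted p = 2.9e-17). SOL3, its counterpart, stood at −0.38 on array a and −0.43 on array b at 15 min and was not called at any time.

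GND1 and GND2 encode phosphogluconate dehydrogenases, which form ribulose phosphate and the second NADPH of the branch. Most of the rise of GND2 came after 5 min. It stood at 1.10 and 1.15 on arrays a and b at 5 min, at 3.36 and 3.32 at 15 min and at 3.68 and 3.31 at 30 min. Its arrays at 45 min gave 2.37 and 2.18, and those at 60 min 1.86 and 1.47. The fitted value at 30 min was 3.49 ± 0.0766 log2, or 11.3-fold higher (limma adjusted p = 1.5e-15). GND1 stood at −0.054 and −0.21 at 15 min and was not called during heat shock, but was called lower at 15 min with no within-array curve (−1.01) and with control spots (−1.23).

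ZWF1, glucose-phosphate dehydrogenase, the entry enzyme of the branch and encoded by a single gene, moved briefly. It stood at 0.58 and 0.66 at 5 min, at 0.92 on both arrays at 15 min, and at 0.27 and 0.22 at 30 min. By 60 min the 2 arrays read −0.36 and −0.23, below the reference. Against the reference it passed the fold threshold at 15 min alone (1.89-fold higher, limma adjusted p = 3.3e-11). That call was lost with a single loess curve for the whole array (0.76), with no curve (0.76) and when the arrays were scaled on external control spots (0.61).

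In the non-oxidative branch 1 gene was called higher and 1 lower. At an unadjusted p under 0.05 (limma), 1 of the 5 was higher and 4 were lower at 15 min. TKL1 and TKL2 encode transketolases, which move 2-carbon units between sugar phosphates. TKL2 gave 1.87 and 1.65 at 5 min, 3.32 and 3.11 at 15 min, and 3.15 and 2.69 at 30 min. Later values were 1.34 and 1.06 at 45 min and 1.32 and 0.83 at 60 min, all still above the cooling arrays, of which the highest was 0.50. The rise at 15 min was 9.28-fold (3.21 ± 0.0668 log2, limma adjusted p = 4.3e-16). TKL1 read −0.69 and −0.60 at 15 min and did not pass the fold threshold at any time of heat shock; at 15 min it did so with 1 curve for the whole array (−0.80), no curve (−0.95) and control spots (−1.14).

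RKI1, the ribose phosphate isomerase that makes the ribose phosphate used for nucleotides, went the other way. Its arrays gave −1.27 and −1.35 at 5 min, −2.07 and −2.01 at 15 min, and −1.79 and −1.68 at 30 min. At 45 min they gave −0.80 and −0.85, and at 60 min −0.80 and −0.93. RKI1 was 4.11-fold lower at 15 min (−2.04 ± 0.0399 log2, limma adjusted p = 2.2e-16), and its value lay between −2.09 and −1.96 over the 8 settings. The calls at 45 and 60 min were lost when external control spots set the scale (−0.71 and −0.69), and also against the 37 °C culture as baseline (−0.30 and −0.33). RPE1, the ribulose phosphate epimerase at the same branch point, read −0.50 and −0.52 at 15 min and was not called, though it was with no curve (−0.81) and with control spots (−0.99). TAL1, the main transaldolase, read −0.18 and −0.28.

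In lower glycolysis the second forms of phosphoglycerate mutase and pyruvate kinase rose. GPM2 and GPM3 are homologues of GPM1, the main phosphoglycerate mutase, that do not replace it. GPM2 read 1.66 and 1.45 at 5 min, 2.20 and 2.08 at 15 min, 2.16 and 2.00 at 30 min, 1.52 and 1.55 at 45 min, and 1.58 and 1.44 at 60 min. It was 4.41-fold higher at 15 min (2.14 ± 0.0495 log2, limma adjusted p = 1.5e-15) and came down little afterwards. GPM3 read −0.24 and −0.25 at 15 min and was not called in any comparison, so that the pair of minor forms did not move alike.

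PYK2, a pyruvate kinase known to be used on poorer carbon sources, read 1.59 and 1.56 at 5 min, 1.88 and 1.83 at 15 min, and 1.51 and 1.32 at 30 min. It declined to 0.86 and 0.90 at 45 min and to 0.66 on both arrays at 60 min, where it no longer passed the fold threshold. At 15 min PYK2 was 3.62-fold higher (1.86 ± 0.0399 log2, limma adjusted p = 6.3e-16). CDC19, the pyruvate kinase of cells on glucose, read 0.29 and 0.33 at 15 min and was not called in any comparison; with control spots it was called lower at 15 min (−0.85).

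**Figure D2:**
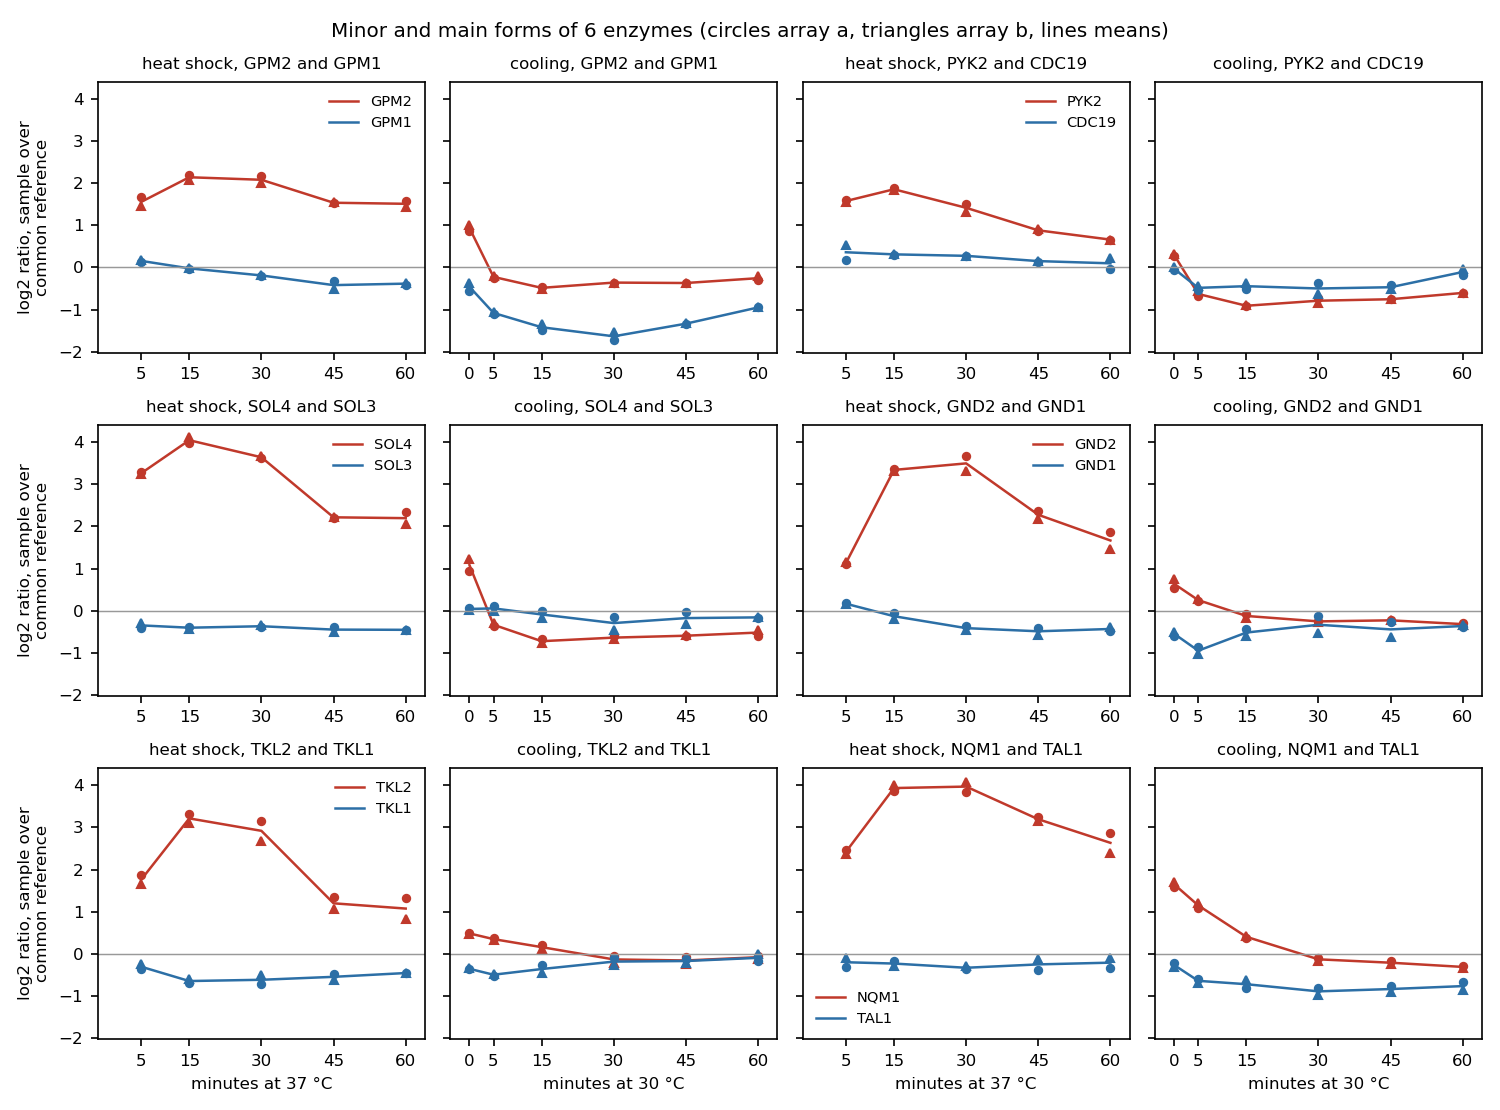
Log2 ratio over the common reference against minutes at 37 °C (heat shock) or at 30 °C (cooling) for 6 pairs of a minor form (red) and a main form (blue). Circles are array a, triangles array b, and lines join the means; each minor form lies above its main form on every heat shock array, with SOL4 at 3.97 and 4.12 and SOL3 at −0.38 and −0.43 at 15 min.

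The build-up from 5 to 15 min was compared directly, a comparison chosen after the values were seen. GND2 gained 2.21 ± 0.108 on the log2 scale (4.64-fold, limma adjusted p = 3.1e-10) and TKL2 gained 1.45 ± 0.0944 (2.74-fold, adjusted p = 7.3e-09). These 2 were called in all 8 settings. SOL4, already at 3.26 by 5 min, gained 0.79 ± 0.0904, and its call was lost without array b of 5 min (0.75), without array b of 15 min (0.71), with no within-array curve (0.75) and with control spots (0.64). With TDH1 and TDH3, 5 of 34 members were called higher and 0 lower by this limma test, against 2.12% and 2.7% of all probes; without array b of 5 min, when the calls of SOL4 and TDH3 (0.76) were lost, the counts were 3 and 1. At an unadjusted p under 0.05, 11 members were higher and 7 lower.

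From 15 to 60 min the same genes came back towards the reference. TKL2 fell by 2.14 on the log2 scale (4.41-fold, limma adjusted p = 2.9e-11), SOL4 by 1.85 (3.6-fold, 8.1e-11), GND2 by 1.67 (3.18-fold, 1.9e-09), ZWF1 by 1.21 and PYK2 by 1.2. RKI1 rose by 1.17 (2.25-fold, adjusted p = 7.2e-11). So 5 members were called lower and 1 higher at 60 than at 15 min, against 5.09% and 5.65% of all probes. GPM2 was not among them. Of these calls only that of ZWF1 ended in any of the 8 settings, at −0.69 with control spots. At 60 min GPM2, SOL4, GND2 and TKL2 were still called higher than the reference in all 8 settings.

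The main glycolytic enzymes gave values that turned on the normalisation. Of the 34 members, 18 had a mean log2 intensity above 12, and 8 had a spot above the signal limit beyond which spots were kept out of the loess curve: TDH3 on 21 arrays, TDH1 and TDH2 on 18 each, ENO1 on 12, GPM1 on 8, FBA1 on 6, ENO2 on 5 and PDC1 on 1. TDH1, TDH2 and TDH3 encode glyceraldehyde phosphate dehydrogenases, and ENO1 and ENO2 enolases. These genes are close in sequence, and how far their probes share signal was not tested. Nor was it tested for the probes of PDC1, PDC5 and PDC6 or of ADH1 and ADH2.

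With the curve fitted in each print block, TDH1 read 1.44 and 1.81 at 15 min, TDH3 1.21 and 1.35, and ENO2 0.90 and 0.93. All 3 were called (limma adjusted p = 9e-10, 3.2e-09 and 3.5e-08), while TDH2 read 0.27 and 0.038 and was not. In the deposited ratios, for which the authors also fitted a curve in each print block, TDH1, TDH2 and TDH3 stood at 1.74, 1.09 and 1.57 and all 3 were called. With 1 loess curve for the whole array, TDH1, TDH2 and TDH3 instead stood together at 1.03, 1.03 and 1.01. With no within-array curve they stood at −0.065, −0.066 and −0.095, and when scaled on external control spots at −0.37, −0.37 and −0.40. ENO2 went from 0.91 to −0.32 and −0.61 in those last 2 settings.

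Values of the rest of the bright group moved too. GPM1 stood at −0.022, −0.19 and −0.42 at 15, 30 and 45 min and was not called. With 1 curve for the whole array it was called higher at these times (1.03, 1.01 and 0.81), and in the deposited ratios, at −0.64, −2.62 and −1.39, it was called lower at 30 and 45 min. Over the 8 settings the value at 15 min moved by 0.78 to 2.11 log2 units for the 18 bright members, with a median of 1.35. For the 16 others it moved by 0.07 to 1.13, with a median of 0.19, and by at most 0.33 for the 10 members with a mean log2 intensity under 10. Those 10 include all 5 strong risers and RKI1. The median of the 18 bright members was 0.26 at 15 min, against −0.03 for 114 other genes above the same intensity limit, without the ribosomal protein genes. The 2 groups were not matched in brightness, with a median intensity of 14.2 log2 units for the members and 12.7 for the others. The median of the members was −0.26 against −0.64 with no curve and −0.52 against −0.88 with control spots. The median of the bright members was above that of the other bright genes in each of these 3 settings, whereas its sign against the reference depended on the setting.

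**Figure D3:**
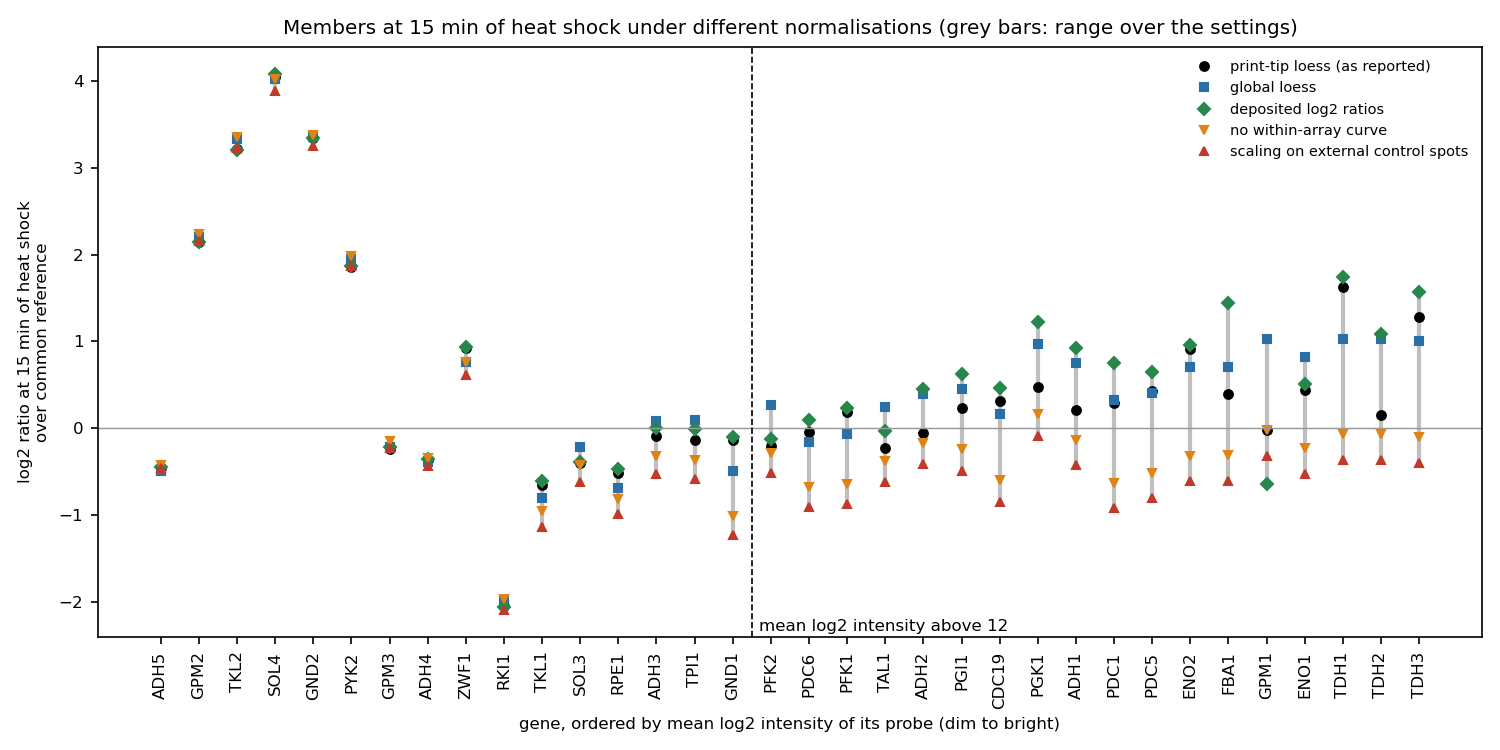
Log2 ratio at 15 min of heat shock over the common reference for the 34 members, ordered from the dimmest to the brightest probe, under 5 of the normalisations (symbols) and the range over all of them (grey bars). The dim risers SOL4, GND2, TKL2, GPM2 and PYK2 overlie in every setting, while TDH1 goes from 1.74 to −0.37.

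Of the remaining glycolytic and fermentation genes few passed during heat shock. PGK1, phosphoglycerate kinase, was called with the print-block curve at 45 min alone (0.73 and 0.91, 1.76-fold, limma adjusted p = 2.6e-07), a call lost with no curve (0.11), with control spots (0.25), with bright spots kept in the curve (0.57) and with the 37 °C culture as the baseline (0.59). With 1 curve for the whole array and in the deposited ratios it was called at 15 min (0.97 and 1.22) and 30 min (1.12 and 1.41) as well. TDH1 and TDH3 were called at 15, 30, 45 and 60 min; the call of TDH3 at 60 min was lost without array a of that time (0.68), and that of TDH1 at 60 min with the 37 °C culture as the baseline (0.75). None of the 5 upper glycolysis genes and none of the 8 fermentation genes was called by limma at any heat shock time with the print-block curve. Of all probes 1.41% to 9.35% were called in one direction at one time. With 5 or 8 genes a count of 0 is near that background. In the deposited ratios FBA1 (1.44 and 1.2) and ADH1 (0.92 and 0.78) were called higher at 15 and 30 min, and with control spots PFK1 (−0.87), PDC1 (−0.92), PDC5 (−0.80) and PDC6 (−0.90) were called lower at 15 min. In the fit with the print-block curve, at an unadjusted p under 0.05, 4 of the 5 were higher and 2 lower at 1 or more times, and 5 of the 8 were higher and 4 lower. ADH3, the mitochondrial alcohol dehydrogenase, read 0.61 and 0.63 at 45 min, below the fold threshold. ADH1, the main enzyme of ethanol formation, read 0.11 and 0.32 at 15 min.

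The culture grown at 37 °C before cooling carried a weaker form of this pattern. The strong risers of heat shock were above the reference and RKI1 below it on both arrays, all by less than at 15 min of heat shock. GPM2 read 0.86 and 1.01 and SOL4 0.94 and 1.22, and these 2 members were called higher than the reference (1.91-fold and 2.12-fold, limma adjusted p = 2.9e-10 and 9.8e-10). No member was called lower by limma, while 9 were higher and 9 lower at an unadjusted p under 0.05. Of all probes 2.22% were called higher and 1.16% lower. GND2 read 0.53 and 0.74, TKL2 0.50 and 0.47, PYK2 0.27 and 0.32, and RKI1 −0.53 and −0.54, all within the threshold. Set against this culture instead of the reference, the members at 15 min of heat shock gave the same calls, with SOL4 at 2.96, TKL2 at 2.73, GND2 at 2.70 and RKI1 at −1.51. At 60 min SOL4 (1.12) and GND2 (1.03) were still above the 37 °C culture, while the calls of GPM2 (0.57) and TKL2 (0.59) were lost. At 5 min those of GPM2 (0.62) and GND2 (0.49) were lost and ZWF1 (0.79, limma adjusted p = 4e-08) was called as well, and at 45 min those of GPM2 (0.60), PYK2 (0.59) and TKL2 (0.72).

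With the curve fitted in each print block, most genes of lower glycolysis and fermentation were called lower at 30 min of cooling. Few genes of upper glycolysis or the pentose phosphate branches passed the fold threshold, though most of them were lower by less. Against the 37 °C culture the members called lower numbered 4, 12, 18, 15 and 12 of 34 after 5, 15, 30, 45 and 60 min. The shares of all probes called lower at these times were 3.21%, 5.5%, 4.43%, 4.17% and 3.51%. Among the members the share rose to 52.9% at 30 min, where the 18 calls fell to 7 with no within-array curve and to 7 with control spots. RKI1 was called higher at 5 and at 15 min, and no member was called higher by limma at 30, 45 or 60 min, while 2.93%, 2.67%, 1.43%, 1.05% and 0.845% of all probes were called higher at the successive times. At an unadjusted p under 0.05, 4 members were higher at 1 or more of these times. The median member stood at −0.84 at 30 min. At 30 min the members called lower were 9 of 11 in lower glycolysis and 6 of 8 in fermentation. In upper glycolysis they were 1 of 5, in the oxidative branch 2 of 5 and in the non-oxidative branch 0 of 5. At an unadjusted p under 0.05 (limma), those lower at 30 min were 5, 4 and 3 of 5 in the same order. The median of the upper glycolysis genes was −0.38 at that time. The cooling times share their time 0 arrays. Probes for forms of 1 enzyme, such as PDC1, PDC5 and PDC6, may share signal, which was not tested. The calls within a group may therefore not all be of separate transcripts.

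Of the genes raised by heat, SOL4, GPM2 and PYK2 came down within 5 min. SOL4 went from 0.94 and 1.22 at time 0 to −0.37 and −0.30 at 5 min, a 2.67-fold drop (limma adjusted p = 3.2e-09). GPM2 went from 0.86 and 1.01 to −0.24 and −0.21 (2.23-fold, 1.7e-09), and PYK2 from 0.27 and 0.32 to −0.69 and −0.57 (1.9-fold, 1.9e-09). All 3 thus lay below the reference at 5 min. GND2 went from 0.53 and 0.74 at time 0 through 0.22 and 0.28 at 5 min to −0.24 and −0.27 at 30 min (1.85-fold, 3.8e-06), and its calls at 30 and 45 min were lost without array b of time 0 (−0.73 and −0.70). TKL2 drifted from 0.50 and 0.47 to −0.054 and −0.21 at 30 min and was not called.

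RKI1 mirrored its course in the heat. It went from −0.53 and −0.54 at time 0 to 0.60 and 0.62 at 5 min, 2.21-fold higher (limma adjusted p = 1.9e-10), then to 0.52 and 0.45 at 15 min and to −0.016 and −0.014 at 60 min. The arrays at 5 and 15 min did not overlap with any other array for this gene. Both calls against time 0 held in all 8 settings.

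PGK1 and GPM1 reached their lowest values at 30 min and ADH3 at 15 min. PGK1 read 0.18 and 0.28 at time 0, −0.69 and −0.42 at 5 min, −1.22 and −0.78 at 15 min, −1.72 and −1.78 at 30 min, −1.73 and −1.70 at 45 min, and −1.19 and −1.21 at 60 min. At 30 min it was 3.94-fold below the 37 °C culture (limma adjusted p = 1.3e-09). Its call at 5 min was lost without array a of time 0 (−0.73) or array a of 5 min (−0.74). GPM1 began at −0.56 and −0.36, reached −1.73 and −1.54 at 30 min and stood at −0.95 on both arrays at 60 min; its drop from time 0 at 30 min was 2.27-fold (adjusted p = 7.4e-10). ADH3 went from 0.43 and 0.40 to −0.90 and −0.93 at 15 min and to −0.52 and −0.60 at 60 min, a 2.51-fold drop at 15 min (adjusted p = 3.6e-13).

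PDC1, the main pyruvate decarboxylase, read 0.012 and 0.052 at time 0, −0.82 and −0.86 at 15 min, −1.17 and −0.99 at 30 min and −0.73 and −0.76 at 60 min. Its relatives PDC5 and PDC6 read −0.90 and −0.87, and −0.94 and −1.25, at 30 min. ENO1 stood at −1.15 and −1.02 and ENO2 at −1.12 and −0.91 at that time. All 5 were called against the 37 °C culture at 30 min (limma), with folds between 1.86 and 2.23. Those 5 calls were lost with no within-array curve and with control spots, in which PDC1, for example, stood at −0.57 and −0.64. Called in all 8 settings at 30 min were PGK1, GPM1, GPM2, PYK2, ADH3, SOL4 and GND2. Leaving out array a or b of 30 min ended the calls of TPI1 (−0.74), ENO2 (−0.75), ADH1 (−0.72) and ADH2 (−0.70). At 15 min the call of TPI1 was lost without array b of time 0 (−0.76) or of 15 min (−0.74) and that of TDH2 without array a of 15 min (−0.59), and at 60 min that of PDC1 without array b of 60 min (−0.74).

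Set against the common reference, which takes the 37 °C culture out of the comparison, more lower calls held in every normalisation at 15, 30 and 45 min. At 5 min 1 held, against 3 in the comparison with the 37 °C culture, and at 60 min 0 held, against 4. Called lower than the reference were 2, 8, 16, 11 and 7 members after 5, 15, 30, 45 and 60 min, while 3.19%, 4.45%, 3.38%, 2.82% and 1.82% of all probes were. No member was called higher by limma, against 4.51%, 3.12%, 1.65%, 0.789% and 0.657% of all probes, and 3 were higher at an unadjusted p under 0.05. At 30 min 12 of the 16 calls, those of TPI1, TDH1, TDH2, TDH3, PGK1, GPM1, ENO1, ENO2, PDC1, PDC5, PDC6 and ADH3, held in each of the 8 settings that gave a value, against 7 of 18 in the comparison with the 37 °C culture. PGK1 stood at −1.75 ± 0.0827 (3.36-fold lower, limma adjusted p = 5.4e-11), with −1.75 to −1.65 over the settings. GPM1 stood at −1.64 ± 0.0471 (3.11-fold, 2.9e-13). TDH1, TDH2 and TDH3 read −0.98, −1.06 and −0.95 here and −0.97, −0.91 and −0.89 with 1 curve for the whole array. The median of the 18 bright members was −0.92 at 30 min, and between −0.93 and −0.86 in the 7 other settings. For the 114 other bright genes the median lay between −0.12 and −0.022 in those 7 settings.

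Of the 34 members, 16 reached their lowest cooling value at 30 min and 7 at 15 min, while 4 were lowest at 5 min and another 4 at 45 min. PGI1 and PFK1 were lowest at 15 min and PFK2 and GND1 at 5 min. By 60 min PGK1 was still 2.3-fold and GPM1 1.93-fold below the reference, but no call at 60 min held in all 8 settings, and with control spots PGK1 stood at −0.75 and GPM1 at −0.41. GND1 was called lower than the reference at 5 min alone (−0.86 and −1.04, 1.93-fold, limma adjusted p = 5.9e-09). TAL1 read −0.81 and −0.97 at 30 min and was called at 30 and 45 min, the latter call being lost without array b of 45 min (−0.75). The calls of FBA1 (−0.61), PYK2 (−0.73) and ADH2 (−0.64) at 30 min, of TDH1 at 45 min (−0.70) and of TDH2 at 60 min (−0.73) were lost when 1 array of that time was left out.

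**Figure D4:**
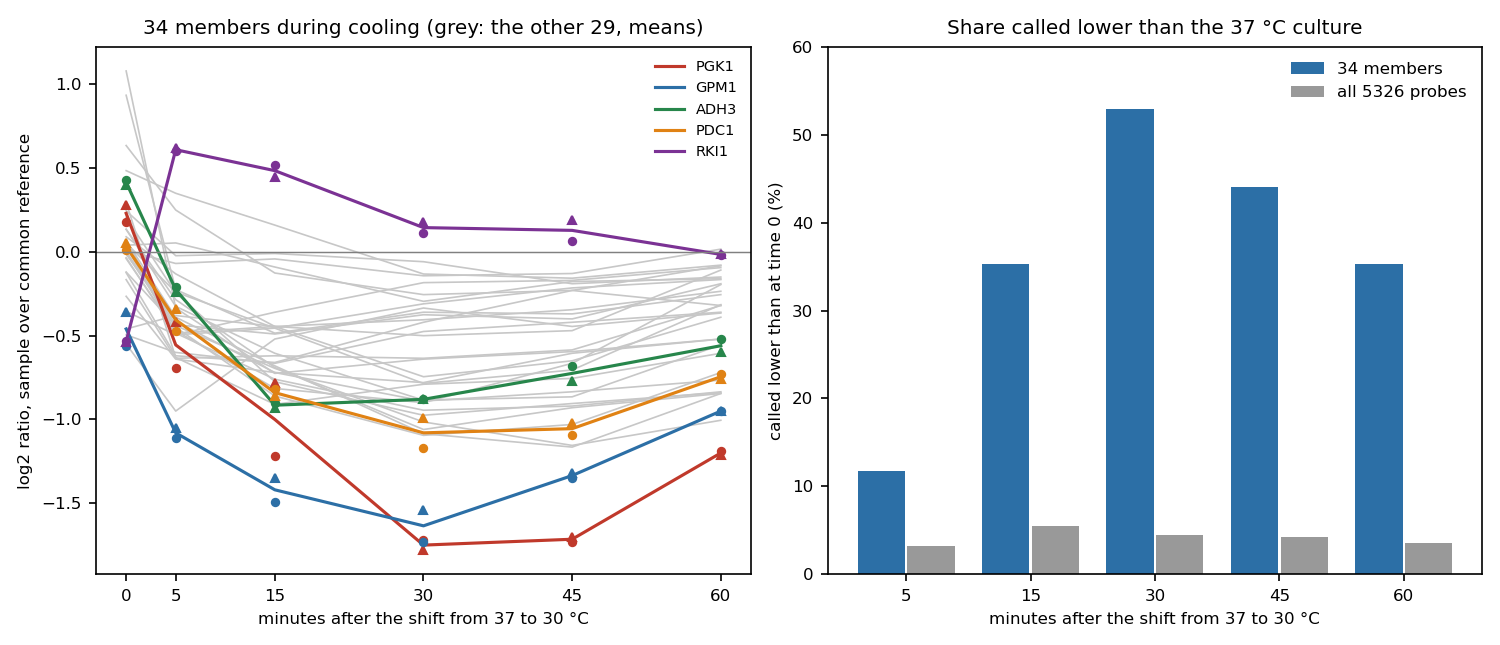
Left, log2 ratio over the common reference against minutes after the shift from 37 to 30 °C, with circles for array a, triangles for array b and lines for means of 5 members, and means of the others in grey; right, the share of the 34 members (blue) and of all 5326 probes (grey) called lower than at time 0. PGK1 falls to −1.72 and −1.78 at 30 min, when 52.9% of the members and 4.43% of all probes are called lower.

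Differences between the forms of an enzyme were taken on each array as the log2 ratio of the minor minus that of the main form, with no test, since the pairs were chosen with results known. At 15 min of heat shock the minor form was above the main form on both arrays in 8 of 14 pairs. Among the 8 were TDH1 minus TDH3 (0.23 and 0.46) and PDC5 minus PDC1 (0.17 and 0.11). The fitted difference of the first went to 0.011 with 1 curve for the whole array. That of the second went to −0.11 in the deposited ratios. Differences of the strong risers were larger. The difference was 4.34 and 4.55 for SOL4 minus SOL3, 4.01 and 3.71 for TKL2 minus TKL1, and 3.41 and 3.53 for GND2 minus GND1. It was 2.23 and 2.09 for GPM2 minus GPM1, where the fitted difference went from 2.16 to 1.17 with 1 curve for the whole array, and 1.60 and 1.5 for PYK2 minus CDC19, where it went from 1.55 to 2.57 with no curve and to 2.72 with control spots. These differences are between changes and say nothing about which form is more abundant. At 30 min of cooling the same differences were −0.47 and −0.22 for SOL4, 0.043 and 0.061 for TKL2, −0.11 and 0.27 for GND2, and −0.35 and −0.24 for PYK2, so that the forms of these 4 enzymes stood close to each other. GPM2 minus GPM1 stayed at 1.37 and 1.18, since GPM1 had declined.

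Over all 22 arrays the difference spanned 5.23 log2 units for SOL4 minus SOL3, 4.16 for GND2 minus GND1 and 4.12 for TKL2 minus TKL1. It spanned 0.43 for PDC5 minus PDC1 and 0.64 for TDH1 minus TDH3. TDH2 minus TDH3 spanned 2.36 with the print-block curve and 0.26 with 1 curve for the whole array. ENO1 minus ENO2 was −0.47 and −0.48 at 15 min of heat shock, yet the fitted difference was 0.12 with 1 curve for the whole array, so its sign was not settled.

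NQM1, which lies outside the 34 genes and encodes a second transaldolase, also rose in the heat. It read 2.46 and 2.38 at 5 min of heat shock, 3.87 and 4.0 at 15 min, 3.85 and 4.09 at 30 min, and 2.88 and 2.39 at 60 min. At 30 min it was 15.7-fold above the reference (limma adjusted p = 8e-16). In the 37 °C culture it stood at 1.59 and 1.71, against 0.94 and 1.22 for SOL4, and at 5 min of cooling still at 1.10 and 1.2, when SOL4 was already below the reference. At 15 min of heat shock each of the 4 pentose phosphate steps measured with 2 forms had thus 1 form far above the reference and a main form below it, SOL3, GND1, TKL1 and TAL1 reading between −0.69 and −0.054; with 1 curve for the whole array TAL1 stood above it, at 0.25.

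Of 11 neighbouring enzymes listed 10 were measured, and 2 were called higher and 3 lower at 15 min of heat shock, against 8.92% and 9.35% of all probes. BDH1, butanediol dehydrogenase, was the other gene called higher, at 2.14 and 2.16 (4.44-fold, limma adjusted p = 5e-17), and it fell below the reference on cooling, to −1.05 and −0.99 at 15 min. PRS1, PRS3 and PRS5, subunits of the phosphoribosyl pyrophosphate synthetase that uses the ribose phosphate made by RKI1, were called lower. They stood at −1.27 and −1.21, −1.06 and −1.0, and −1.02 on both arrays. PRS4 read −0.66 and −0.72 and PRS2 −0.15 and −0.067, below the threshold. On cooling PRS1 rose with RKI1, to 0.49 and 0.46 at 5 min from −0.31 and −0.34 at time 0 (1.74-fold, adjusted p = 9.3e-10).

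Of 8 regulators measured, 2 were called higher and 0 lower by limma at 15 min of heat shock, against 8.92% and 9.35% of all probes. In cooling none was called against either baseline, where 0.657% to 5.5% of all probes were called in one direction at one time; with 8 genes a count of 0 is near that background. At an unadjusted p under 0.05, 2 were lower at 15 min of heat shock, and 6 were higher and 4 lower at 1 or more times of cooling against either baseline. PFK26, a kinase that makes an activator of phosphofructokinase, read 1.26 and 1.15 (2.31-fold, limma adjusted p = 9e-14). FBP26, the phosphatase that removes the same activator, read 0.86 and 0.87 at 15 min, after 1.01 and 1.12 at 5 min. PFK27, the second kinase, read 0.44 and 0.39. The transcription factors of glycolytic genes did not pass: GCR1 read 0.039 and 0.092, GCR2 −0.037 and 0.0057, TYE7 0.23 and 0.09, and RAP1 −0.70 and −0.80. STB5, a regulator of pentose phosphate genes, read −0.69 on both arrays. These are transcript levels of the regulators and not their activities.

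There were 10 members called in none of the 18 comparisons: PGI1, PFK1, PFK2, GPM3, CDC19, ADH4, ADH5, SOL3, RPE1 and TKL1. Their log2 ratios over the 22 arrays lay between −0.72 and 0.54. In single comparisons 0.657% to 9.35% of all probes were called in one direction. The share of all probes called in none was not determined, so the count of 10 is not a trait of these genes. PFK1 and PFK2, the subunits of phosphofructokinase, read 0.23 and 0.16, and −0.18 and −0.21, at 15 min of heat shock, an order that turned with 1 curve for the whole array (−0.07 and 0.27). Both lay below the reference at 5 min of cooling (−0.58 and −0.66, and −0.52 and −0.47). At 30 min of heat shock the arrays of PFK2 disagreed, at −0.57 and 0.12.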

How the data were processed

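The authors scanned the spotted arrays and deposited the intensity of each spot in each channel, with no background subtracted; they also deposited normalised log2 ratios per array (print-tip loess, span 0.4, then a gene-specific dye correction), whose sign was opposite to the scanner values on 3 arrays and was turned there. Column medians of those ratios lay between −0.0117 and 0.0219. A table of the authors' comparisons, holding log2 changes and p-values, was not used. The submitters' processing notes name limma 2.12.0. No genome build is given in the sources used here.

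R 4.3.3 and limma 3.58.1 were used. Log2 ratios came from a loess curve (span 0.4) in each of 48 print blocks, fitted without control spots and spots above 32768, and were then averaged over the 2 spots per probe. A probe was well above background when it exceeded it by 2.6 background SDs. A linear model with 11 conditions and a dye term was fitted to 22 arrays, with 10 residual degrees of freedom. Letters a and b mark the dye orientation, so the dye term is the replicate block; the differences a minus b of 2 conditions correlated at a median of 0.355, lowest −0.127. Of 6388 gene probes 5326 carry a symbol. Names were matched for 5309 of 5315 genes to a gene table of assembly R64. The steps were tested on simulated data.

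Named genes are all 34 members, the regulators, and neighbouring enzymes that were called or paired with a member; SHB17 was not analysed here. Members, lists and pairs were chosen with earlier results of these data known, and the comparison of 15 with 5 min of heat shock, with its alternatives, after the data were examined. The 8 settings were print-tip loess, global loess, no within-array curve, scaling on external control spots, bright spots kept in the curve, bright spots left out, normexp background with an offset of 50, and the deposited ratios. The settings on bright spots act on spots above 32768, so they could hardly move dim members. Promoter motifs were not searched here.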

Additional observations from a re-analysis of the deposited data

How the results depend on the processing

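Values rest on 2 arrays a condition, and the brightest external control probe has a mean log2 intensity of 10.8, so that scaling on control spots is extrapolated for brighter genes. Dim members were above background, and precision there is limited by the number of arrays. Leaving out the replicate block (the dye term) and normexp background ended none of 161 gene calls. Leaving out dim probes also ended none, but it could drop no member, since all 34 were well above background on all 22 arrays. Of these 3 settings, normexp alone gave a member a further call, FBA1 at 30 min of cooling against the 37 °C culture (−0.78 from −0.77). The members gained 22 and lost 15 calls with global loess, 24 and 58 with no curve, 29 and 67 with control spots and 32 and 5 in the deposited ratios, over 18 comparisons. Without the replicate block 10 members were called higher and 1 lower in heat shock, as with it. The cause of the shifts below was not tested.

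The counts of members below show how calls move with the setting. Shares of all probes called at 1 or more times, or by adjusted p alone, were not determined. The counts therefore allow no comparison with other genes. Members called higher in heat shock numbered 10 at 1 or more times, 5 with no within-array curve, 5 with control spots and 24 by adjusted p alone. Members called lower numbered 1, but 2 with global loess, 7 with no curve, 9 with control spots, 2 in the deposited ratios and 16 by adjusted p alone. In the 37 °C culture 2 were higher (9 by adjusted p alone, 1 at 2-fold) and 0 lower (1 with no curve, 1 with control spots, 9 by adjusted p alone). Against that culture cooling gave 1 higher (2 with control spots, 4 by adjusted p alone) and 18 lower (7 with no curve, 7 with control spots, 31 by adjusted p alone). Against the reference cooling gave 0 higher (3 by adjusted p alone) and 17 lower (32 by adjusted p alone, 7 at 2-fold). From 15 to 60 min of heat shock 1 was higher (3 with control spots, 6 by adjusted p alone) and 5 lower (8 in the deposited ratios, 14 by adjusted p alone). From 5 to 15 min 5 were higher (3 with global loess, 2 with no curve, 2 with control spots, 3 with bright spots left out, 11 by adjusted p alone, 2 at 2-fold) and 0 lower (1 with no curve, 2 with control spots, 2 in the deposited ratios, 7 by adjusted p alone).

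With 1 array left out, the members called higher in heat shock numbered 10 to 11 and those lower 1. The 37 °C culture had 2 to 3 higher, cooling 17 to 19 lower against that culture and 16 to 18 lower against the reference, 60 against 15 min 5 to 6 lower, and 15 against 5 min 3 to 5 higher and 0 to 1 lower, the lowest and highest of these without array b of 5 min. The 8 pairs of forms stayed at 8, which was fixed in advance, since every pair had the same sign on both arrays of 15 min.

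Among the called values, signs turned for TDH1, TDH2, TDH3, ENO1, ENO2 and PDC1, as follows. At 15 min of heat shock TDH1 read −0.065 with no curve and −0.37 with control spots, TDH3 −0.095 and −0.40, and ENO2 −0.32 and −0.61. At 30 min TDH1 read −0.0081 with no curve, TDH3 −0.047 and −0.02, and ENO2 −0.35 and −0.34 in the same order. At 45 min TDH1 read −0.28 and −0.15 and TDH3 −0.31 and −0.18, and at 60 min TDH1 −0.31 and TDH3 −0.29 with no curve. From 5 to 15 min TDH1 changed by −0.58 with control spots, and TDH3 by −0.086 with no curve and −0.70 with control spots. At 60 min of cooling against the 37 °C culture, control spots gave TDH2 0.079, TDH3 0.041, ENO1 0.07, ENO2 0.19 and PDC1 0.14.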
